A study of Drosophila melanogaster with 16 samples.

Results

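RNA of the NUN pellet was compared between OSS cells that received siRNA against piwi (siPIWI) and OSS cells that received siRNA against GFP, the negative control (siGFP). OSS is a Drosophila melanogaster line cultured from ovarian follicle cells. A 10 cm plate was electroporated with 500 pmol of siRNA and the cells were kept for 6 days, and the pellet (the labels do not spell NUN out) was separated from a cytoplasm lysate. The comparison used 4 of the 16 libraries of the series, 2 per group, numbered OSS_146 and OSS_147, and the fits also held the pellets of cells that received siRNA for the Paf1 gene (siPAF1) or for piwi and the Paf1 gene together (the double knockdown). All groups went through the same electroporation, and no group without siRNA was among the samples. Nothing in the labels says that OSS_146 and OSS_147 were separate cultures, so the p-values measure the spread between these libraries, which may be technical.

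Piwi is an Argonaute protein that carries piRNAs, small RNAs that match transposons, into the nucleus. In follicle cells of the ovary, which have Piwi but lack most of the germline's piRNA machinery, it silences transposons at the level of transcription and of chromatin, and genes that lie close to a silenced insertion can be affected too. The tables list genes and no transposon families, so the question here is which gene-level RNA of the pellet moved with siPIWI, on the gene's own strand and on the other one.

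Each of 14229 genes was represented by the model with its longest coding sequence, out of 24995 models. The 4 libraries held 2169172 and 3034142 own-strand coding counts with siGFP (OSS_146 and OSS_147) and 4623806 and 2080794 with siPIWI. RNA of the opposite strand made up 5.31% to 6.79% of the coding counts of these 4 libraries. Markers of the labelled cell type were present, since 10 of 10 follicle cell markers passed the count filter and together stood at 6033 to 7392 CPM (counts scaled to the TMM-adjusted coding library size). Germline markers summed to 31.5 to 41.4 CPM and fat body markers to between 0 and 1.01 CPM. Other lists were higher: haemocyte markers summed to 301.5 to 375.8 CPM and neuron markers to 1031 to 1423 CPM. The muscle list summed to 3858 to 4366 CPM, of which the gene sls alone held 3209 to 3833 CPM. The sums therefore do not set follicle cells apart from every other list.

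The targeted mRNA was measured first. The coding level of piwi in the pellet was 1060 and 1010 CPM in the siGFP libraries and 874 and 591 CPM in the siPIWI libraries. The siPIWI values lie below the siGFP values in both libraries, but the log2 fold change of -0.49 ± 0.24 (SE) did not pass (edgeR quasi-likelihood test, adjusted p = 1.0 over all genes). In the cytoplasm lysates of the same groups piwi was at 286 and 306 CPM with siGFP against 85.8 and 42.2 CPM with siPIWI. There too both siPIWI values lie below both siGFP values, by a wider margin, and that difference was not tested here. The Paf1 gene, listed as atms, stood at 82.5 and 58.3 CPM with siGFP and at 72.0 and 75.4 CPM with siPIWI (0.07 ± 0.31).

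On their own strand, 10 of 8232 genes tested (0.121%) rose with siPIWI at an adjusted p under 0.05 and 0 fell, and 179 genes had an unadjusted p under 0.05. The median log2 fold change over all genes tested was 0.003. In bulk RNA, a change in the number of cells of a type and a change of RNA per cell cannot be told apart. The 10 genes had no overlap between groups, which a call for a rise in these same libraries all but sets. Of all tested genes 10.6% had that pattern in the same direction and 9.86% in the other. In 10 of 10 siPIWI library OSS_146 was higher than siPIWI library OSS_147.

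Among the genes for extracellular and surface proteins, dp encodes dumpy, a giant fibre-forming protein of the apical matrix. Its coding level was 55.3 and 36.0 CPM with siGFP and 810 and 580 CPM with siPIWI (log2 fold change 3.94 ± 0.40, adjusted p = 0.0136). The Nimrod gene nimC2 belongs to a family of phagocytosis receptors and stood at 4.53 and 3.03 CPM against 52.8 and 37.4 CPM (3.6 ± 0.50, adjusted p = 0.037). Golden goal (gogo), a receptor that guides photoreceptor axons, had the narrowest spread among the controls of these 3 genes, at 83.9 and 83.8 CPM, and reached 332 and 213 CPM (1.7 ± 0.24, adjusted p = 0.037).

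Among enzymes, the P450 gene Cyp28a5 went from 4.53 and 2.36 CPM to 113 and 50.7 CPM (4.62 ± 0.56, adjusted p = 0.0171). Pde6, a phosphodiesterase that hydrolyses cGMP, went from 21.3 and 27.9 CPM to 292 and 141 CPM (3.13 ± 0.36, adjusted p = 0.0136). Unc-89 encodes obscurin, a giant sarcomere protein with kinase domains, and was at 19.0 and 11.8 CPM against 145 and 97.0 CPM (3.0 ± 0.40, adjusted p = 0.0339). In each of these genes the siPIWI libraries differed from each other by more than the siGFP libraries did in CPM.

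The 4 other genes are known by CG numbers only and have no role stated here. CG30095 was at 0.907 and 3.03 CPM with siGFP against 90.9 and 47.8 CPM with siPIWI (5.04 ± 0.57, adjusted p = 0.0136), and CG13870 at 2.27 and 1.35 CPM against 75.5 and 37.9 CPM (5.0 ± 0.54, adjusted p = 0.0136). CG15572 was at 2.72 and 2.36 CPM against 33.9 and 16.7 CPM (3.34 ± 0.48, adjusted p = 0.0383). With both strands counted together CG30095 stood at 1.07 (adjusted p = 0.606), and RNA opposite to it was at 68.9 and 34.3 CPM against 29.7 and 49.3 CPM. CG12691 had 2 and 1 counts with siGFP against 193 and 27 with siPIWI, which is 55.5 times as much after scaling (exact 95% counting limits 18.7 and 271, adjusted p = 0.037). All 4 stood at 3.03 CPM or less in the control and were higher in both siPIWI libraries. Left-out libraries decided this count: without either siGFP library, or without siPIWI library OSS_146, 0 genes passed, and without siPIWI library OSS_147 there were 8, with nimC2 and Unc-89 lost. Over the whole locus window gogo (0.73, adjusted p = 0.979), CG15572 (4.15, adjusted p = 0.194) and Unc-89 (3.07, adjusted p = 0.0539) did not pass, and with only the 2 groups in the fit gogo did not (adjusted p = 0.0557).

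**Figure D1:**
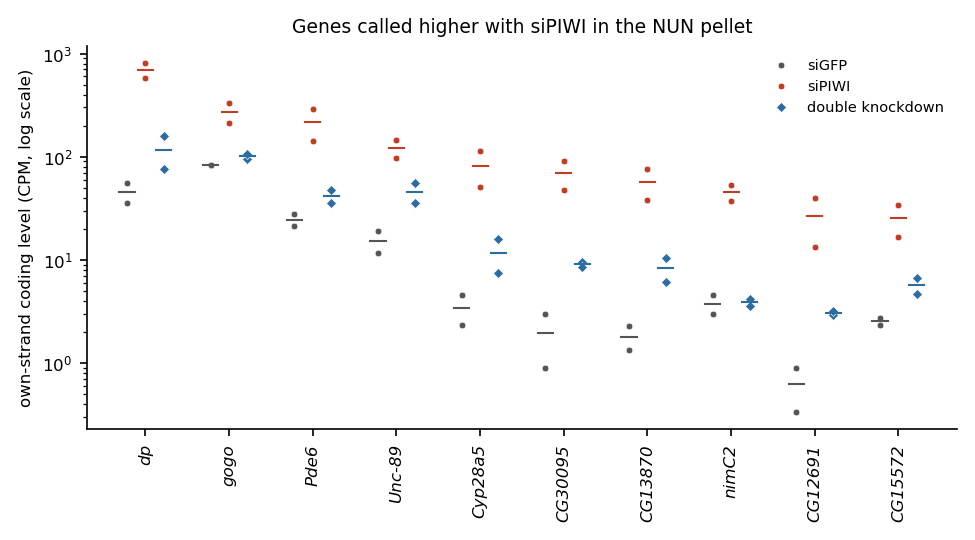
Own-strand coding level (CPM, log axis) of the 10 genes that rose, with a point per library, 2 per group, and a bar at the mean, for siGFP, siPIWI and the double knockdown. The siPIWI points lie above the siGFP points in every gene, with dp at 810 and 580 CPM against 55.3 and 36.0 CPM.

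The rest of each locus is what the deposited locus window held on the own strand outside the coding sequence: introns, untranslated regions and, where the window reached past the annotated ends, sequence beyond the gene. It was noisier than the coding sequence. The biological coefficient of variation was 48.4% against 21.2%, and this signal ranged from 0.504 to 0.769 counts per coding count over the 4 libraries. Of 6397 genes tested, 2 rose (0.0313%) and 0 fell, with 3.2% at an unadjusted p under 0.05. Both siPIWI libraries lay above both siGFP libraries in 10.3% of all tested genes and below both in 12.5%. In simulated data 5 of 100 changes of 2 on the log2 scale were called in this test, so few calls do not show that little changed. Ccn, a member of a family of matricellular signalling proteins, went from 8.70 and 8.68 CPM to 211 and 125 CPM (4.27 ± 0.40, adjusted p = 0.0485), although its coding sequence held only 1 count with siGFP and 17 with siPIWI and was not tested. Pde6 went from 34.0 and 24.0 CPM to 388 and 306 CPM (3.59 ± 0.34, adjusted p = 0.0485). Both genes had non-overlapping groups, and neither passed without either siGFP library, without siPIWI library OSS_146, with DESeq2 size factors (adjusted p = 0.0509 each) or with only the 2 groups in the fit (0.201 each).

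Of the 10 genes that rose in the coding sequence, 8 could be tested in the rest of the locus and 7 were positive there. Over all genes tested there, 45.3% were positive. The 10 were chosen for rising in these same libraries, so their signs there are no further evidence. In dp the rest of the locus was at 10.3 and 6.62 CPM with siGFP and at 272 and 202 CPM with siPIWI (4.82 ± 0.72, adjusted p = 0.213). The exception was gogo, whose rest of the locus was at 327 and 195 CPM against 217 and 243 CPM (-0.18 ± 0.33, adjusted p = 1.0) while its coding sequence rose. The test of the difference between both regions gave -1.80 ± 0.42 for gogo (unadjusted p = 0.00424, adjusted p = 1 over 6002 genes), and it called 0 genes in all, with 78 at an unadjusted p under 0.05.

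The window that the deposited tables count as a locus was not the same in each library. Its part outside the coding sequence was longer in siPIWI library OSS_146 than in both siGFP libraries in 9 of these 10 genes. In 6 of them it was longer by over 10%. The shares were 42.7% and 20.9% of all 6397 genes tested. Among the 273 genes with a log2 change above 2 or under -2 they were 64.1% and 58.2%. CG30095 spans 1094 annotated bases, of which 645 are coding, so its window reached past its ends and could hold reads of neighbours such as spin or Jhe, 405 and 710 bases away on the same strand. For CG30095 the part outside the coding sequence was 686 and 1354 bases with siGFP and 8954 and 904 bases with siPIWI, and for CG12691 it was 220 bases in both siGFP libraries against 3696 and 796. Ccn and Pde6 moved less, with 57673 and 57573 against 59623 and 57723 bases for Ccn. With the window length as an offset, 3 genes rose, these 2 among them.

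**Figure D2:**
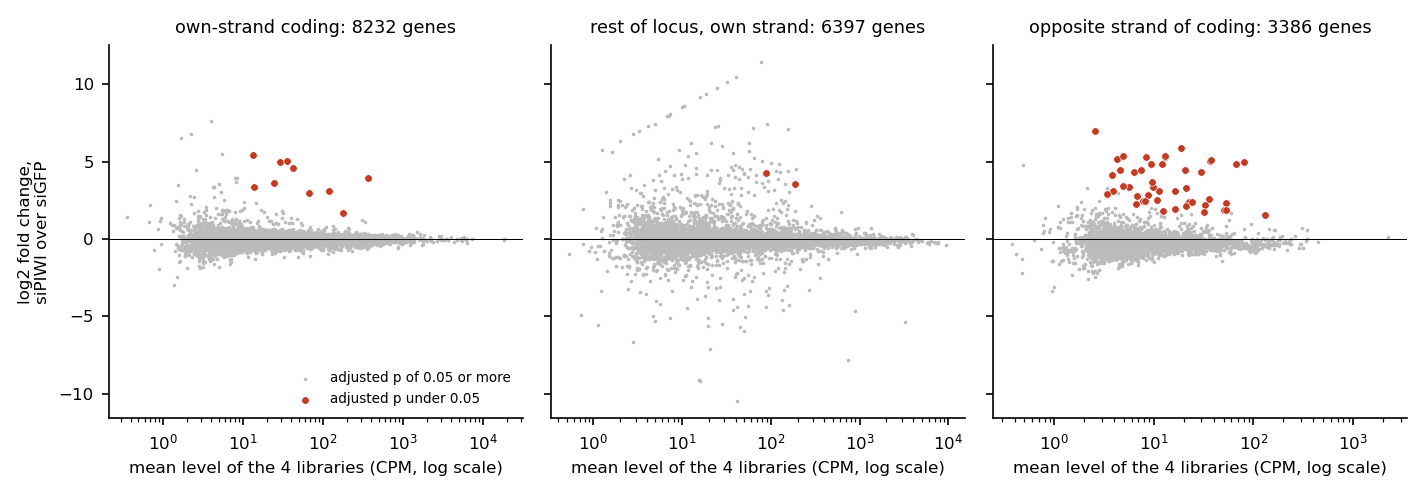
Log2 fold change of siPIWI over siGFP against the mean CPM of the 4 libraries (log axis), with a point per gene, for own-strand coding counts (8232 genes), the rest of the locus (6397) and the opposite strand of coding sequences (3386). Red points passed at an adjusted p under 0.05: 10, 2 and 47 genes, all above 0.

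The largest number of calls came from RNA opposite to coding sequences. Of 3386 genes tested, 47 rose (1.39%) and 0 fell, and 184 had an unadjusted p under 0.05. Both siPIWI libraries lay above both siGFP libraries in 47 of 47, which a call for a rise in these same libraries all but sets. Of all genes tested 8% had that pattern, and 25.5% had both siPIWI libraries below. Some of the 47, such as CG11192 with 0 and 0 siGFP counts, passed the count filter only through siPIWI. The median over all genes was -0.27 (-0.03 when the opposite-strand counts were scaled by themselves, with 52 calls that held all 47). Fold changes of the 47 ran from 1.58 to 6.96 on the log2 scale, with a median of 3.32. Without siGFP library OSS_146 the count was 32, without siPIWI library OSS_146 it was 12, without siGFP library OSS_147 it was 16 and without siPIWI library OSS_147 it was 26, and 0 passed when the whole locus, not the coding sequence, was counted on the opposite strand. Levels of the opposite strand below are CPM of the own-strand coding library, and 20 of the genes were named by rank of adjusted p and the remaining 27 after their values were seen.

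RNA opposite to CG30115 was at 4.99 and 4.04 CPM with siGFP and at 139 and 117 CPM with siPIWI (4.83 ± 0.51, adjusted p = 8.38e-06). Opposite to MRP, which encodes an ABC transporter of the multidrug resistance type, it was at 1.36 and 1.35 CPM against 21.0 and 14.3 CPM (3.68 ± 0.58, adjusted p = 0.000583). Opposite to Octbeta3R, an octopamine receptor gene, it was at 5.44 and 1.68 CPM against 33.5 and 25.1 CPM (3.1 ± 0.57, adjusted p = 0.00352). In each of these 3 genes the gap between the groups was wider than the gap within either group.

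RNA opposite to CG34353 stood at 2.72 and 2.69 CPM against 65.3 and 46.8 CPM (4.36 ± 0.52, adjusted p = 2.52e-05). Opposite to CG5142 it was at 4.53 and 0 CPM against 91.5 and 53.7 CPM (5.14 ± 0.72, adjusted p = 0.000177), and opposite to CG30222 at 2.27 and 1.35 CPM against 53.4 and 25.6 CPM (4.48 ± 0.61, adjusted p = 0.000125). Smaller changes were found opposite to p120ctn, an adherens junction gene, with 13.6 and 15.5 CPM against 48.7 and 48.8 CPM (1.74 ± 0.42, adjusted p = 0.0353), and opposite to CG17883, with 53.5 and 78.8 CPM against 240 and 156 CPM (1.58 ± 0.37, adjusted p = 0.0318). Opposite to Git, which encodes an ArfGAP that binds the focal adhesion machinery, the levels were 13.1 and 10.1 CPM against 64.5 and 42.9 CPM (2.22 ± 0.43, adjusted p = 0.00612). Unlike the coding calls, these 47 did not all favour library OSS_146: it was the higher siPIWI library in 33.

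**Figure D3:**
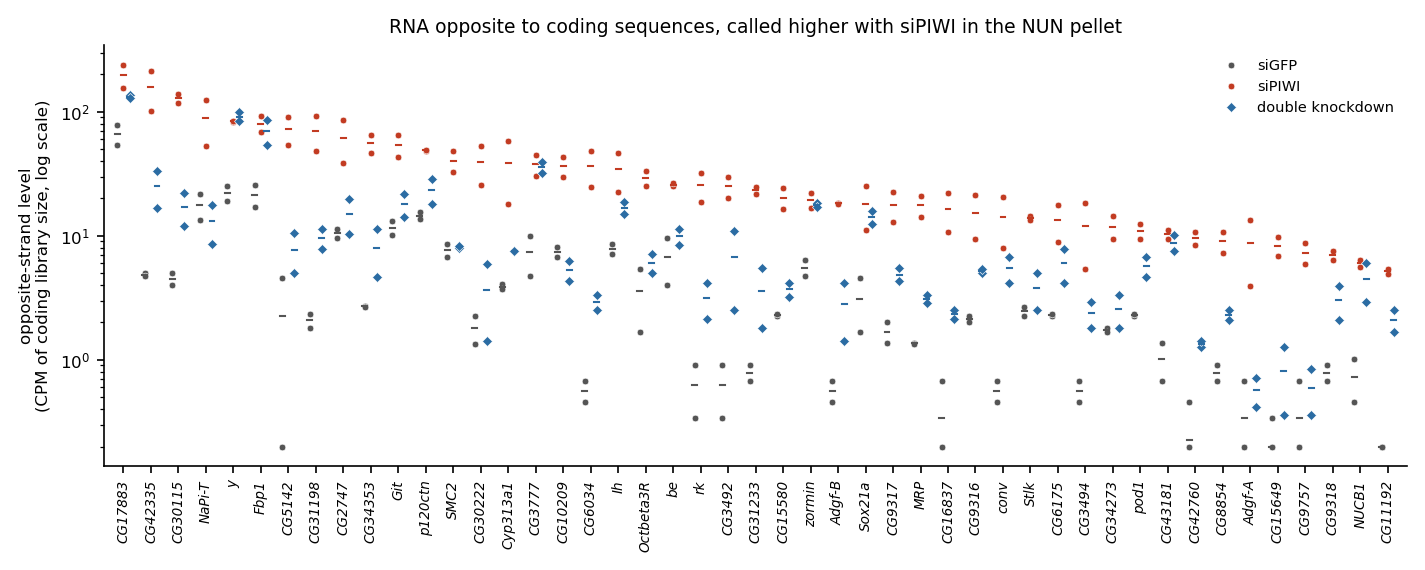
Level of RNA opposite to the coding sequence (CPM of the own-strand coding library, log axis) of the 47 genes that rose, with a point per library and a bar at the mean, for siGFP, siPIWI and the double knockdown, ordered by the siPIWI mean. Points drawn at 0.2 CPM are at or below that value, and in all 47 genes the siPIWI points lie above the siGFP points.

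On the own strand of the same genes, coding counts were tested in 27 of the 47, with 0 calls, a median of -0.08 (0.003 over all genes), 9 positive values and 19 within 0.5 of 0. The own-strand coding level of MRP was 821 CPM (mean) with siGFP and 719 CPM with siPIWI (-0.19 ± 0.24), that of the condensin gene SMC2 115 and 124 CPM (0.11 ± 0.19), and that of zormin, a titin-related sarcomere gene, 1060 and 1020 CPM (-0.05 ± 0.18). The own strand ranged from -1.16 for rk to 3.36 for CG6034, with adjusted p = 1.0 and 0.534. The other 20 genes had too few own-strand counts to be tested. Among them Fbp1, a fat body gene, had 1 own-strand count in all 4 libraries while RNA opposite to it went from 25.8 and 17.2 CPM to 68.6 and 91.6 CPM (1.9 ± 0.44, adjusted p = 0.0255). The other fat body markers stayed between 0 and 0.337 CPM per library on their own strand. Of the 47, 12 had another gene of the table overlapping on the strand of this RNA and 35 had none.

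Many of the genes with a call were neighbours whose RNA ran on the same strand. When calls of any kind were joined wherever RNA of the same strand lay within 20000 bases, a rule chosen after the calls were seen, the 59 calls in 58 genes fell into 36 stretches, and 13 of these held 35 of the genes. Distances of 10000 and 50000 bases gave 13 and 14 such stretches. Inside the 13 lay 50 genes of the table, of which 41 were tested on that strand and 34 were called. The stretches were built from called genes, so this share is set by the rule. How often calls placed at random would be joined was not tested. Several of the tested genes without a call passed the count filter only through the siPIWI libraries, so their sign is no further evidence. These genes share an RNA strand and a position, so they are not independent of each other. In 4 of the stretches the RNA was in the sense of some genes and opposite to others. Coordinates below are those of the files, whose build is not given in the sources used here.

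On chromosome 2L, plus strand, bases 13977303 to 14001252, the stretch ran through Cyp28a5 and nimC2 in their own sense and on across rk, which lies on the minus strand. The gene rk (rickets) encodes the receptor of the hormone bursicon. RNA opposite to it had 0.907 and 0.337 CPM with siGFP and 32.2 and 18.7 CPM with siPIWI, a ratio of 48.7 with a counting interval of 16.4 to 238 (adjusted p = 4.19e-05). On its own strand rk was at 18.6 and 13.1 CPM against 6.03 and 8.37 CPM (-1.16 ± 0.46, adjusted p = 1.0), so both strands had non-overlapping groups in opposite directions and the opposite one passed. Of the genes within 10000 bases of Cyp28a5, nimC1 lies on the other strand 549 bases away and was too low to be tested, and He had 0 counts in all 4 libraries.

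On 3R, minus strand, bases 10339622 to 10355513, Pde6 rose in its own sense, and RNA opposite to CG34273 and to the P450 gene Cyp313a1, both inside Pde6, rose on the same strand. Opposite to Cyp313a1 the levels were 4.08 and 3.70 CPM against 58.4 and 18.2 CPM (3.32 ± 0.55, adjusted p = 0.00104), while its own strand was at 51.8 and 44.4 CPM on average (-0.2 ± 0.29). Reads over these nested genes are at the same time reads of the Pde6 locus. Of the tested neighbours outside Pde6, mRpL11 stood at 0.11 and HtrA2 at 0.25, and CG8461, 294 bases away on the same strand, had 4 and 7 coding counts with siGFP against 21 and 7 with siPIWI (0.91, adjusted p = 1.0).

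On 3L, plus strand, bases 17683115 to 17757253, the rest of the Ccn locus rose in its own sense. RNA opposite to CG6034, Adgf-B and Adgf-A rose on the same strand. CG6034 lies inside Ccn, so plus-strand reads over it are at the same time reads of the Ccn locus. Adgf-B overlaps the annotated end of Ccn. These calls are therefore not independent of that of Ccn. Adgf-A and Adgf-B encode secreted adenosine deaminases. Opposite to CG6034 there were 0.453 and 0.673 CPM with siGFP and 48.5 and 24.6 CPM with siPIWI, a ratio of 71.4 (interval 24.2 to 348, adjusted p = 1.54e-05). Opposite to Adgf-B the values were 0.453 and 0.673 CPM against 18.3 and 18.2 CPM, a ratio of 31.5 (10.5 to 155, adjusted p = 0.000317). Adgf-A itself, on its own strand, was level at 291 and 288 CPM (-0.02 ± 0.20). In the same stretch Msi had 0 and 0 opposite-strand counts against 27 and 10 (adjusted p = 0.0633), and NUCB1, a nucleobindin gene beyond the joining distance at bases 17791160 to 17795353, had opposite-strand RNA of 0.453 and 1.01 CPM against 5.62 and 6.40 CPM (2.89 ± 0.73, adjusted p = 0.0497).

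On 3R, minus strand, bases 17575575 to 17595023, RNA rose opposite to 3 genes in a row. It was at 0.907 and 0.673 CPM against 21.8 and 24.6 CPM at CG31233 (4.83 ± 0.74, adjusted p = 0.000425), at 1.81 and 2.36 CPM against 92.8 and 48.3 CPM at CG31198 (5.04 ± 0.58, adjusted p = 1.54e-05), and at 4.99 and 4.71 CPM against 213 and 101 CPM at CG42335 (5.01 ± 0.54, adjusted p = 8.38e-06). The 3 fold changes lie within their standard errors of each other. Own-strand coding counts of these genes were between 0 and 4 per library.

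On 2R, 3 further runs held opposite-strand RNA. On the plus strand at 10730216 to 10740155 it covered NaPi-T, a phosphate transporter gene, at 21.8 and 13.5 CPM against 125 and 52.7 CPM (2.35 ± 0.49, adjusted p = 0.0123), then CG10209 and SMC2 at 2.31 ± 0.45 and 2.41 ± 0.43. On the minus strand at 20360235 to 20363544 it covered CG3492, CG3494 and CG16837, whose own strands had 0 counts in all 4 libraries. Opposite to CG16837 there were 0 and 2 counts against 106 and 22, a ratio of 48.4 (interval 13.1 to 404, adjusted p = 0.000425). On the minus strand at 10158306 to 10187349 it covered conv and the ion channel gene Ih, which went from 8.61 and 7.07 CPM to 22.5 and 46.3 CPM (2.11 ± 0.46, adjusted p = 0.0173).

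CG13870 on 2R also stood in a run of the same strand. CG16739, 1070 bases from it, was at 1.81 and 0.337 CPM against 15.8 and 16.3 CPM (3.96 ± 0.68, adjusted p = 0.122), and CG16741, 1156 bases from it, had 0 and 0 counts against 51 and 11 (adjusted p = 0.16). RNA opposite to CG11192, 8226 bases away, had 0 CPM in both siGFP libraries against 5.41 and 4.93 CPM, at least 9.08-fold higher when the control is set to a floor of 3 counts over the group (adjusted p = 0.0411). The first pair did not pass, and the last did. On X, CG12691 and CG15572 lie 2031 bases apart on the plus strand, and the other table genes within 10000 bases, CG15577 and CG15578, were too low to be tested.

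At the tip of X, minus strand, bases 173736 to 255278, RNA rose opposite to CG3777, CG43181 and y (yellow, a cuticle pigment gene). Opposite to y the levels were 25.4 and 19.2 CPM with siGFP and 83.2 and 83.7 CPM with siPIWI (1.91 ± 0.39, adjusted p = 0.00877), while y itself had 1 and 2 own-strand counts over the siGFP and the siPIWI libraries. Opposite to CG3777 they were 9.97 and 4.71 CPM against 30.4 and 44.8 CPM (2.37 ± 0.46, adjusted p = 0.00613). Other runs joined Sox21a with Fbp1 on 3L and CG42760 with CG9757 on 3R. Opposite to Sox21a, a transcription factor gene of intestinal progenitors, RNA was at 4.53 and 1.68 CPM against 11.2 and 25.1 CPM (2.55 ± 0.61, adjusted p = 0.034). Between CG42760 and CG9757, CG9759 had 1 and 1 opposite-strand counts against 47 and 8 (4.07, adjusted p = 0.0885). The run on 2L at 20724209 to 20734310 covered CG9316, CG9317 and CG9318, at 2.87 ± 0.62, 3.36 ± 0.57 and 3.11 ± 0.74.

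**Figure D4:**
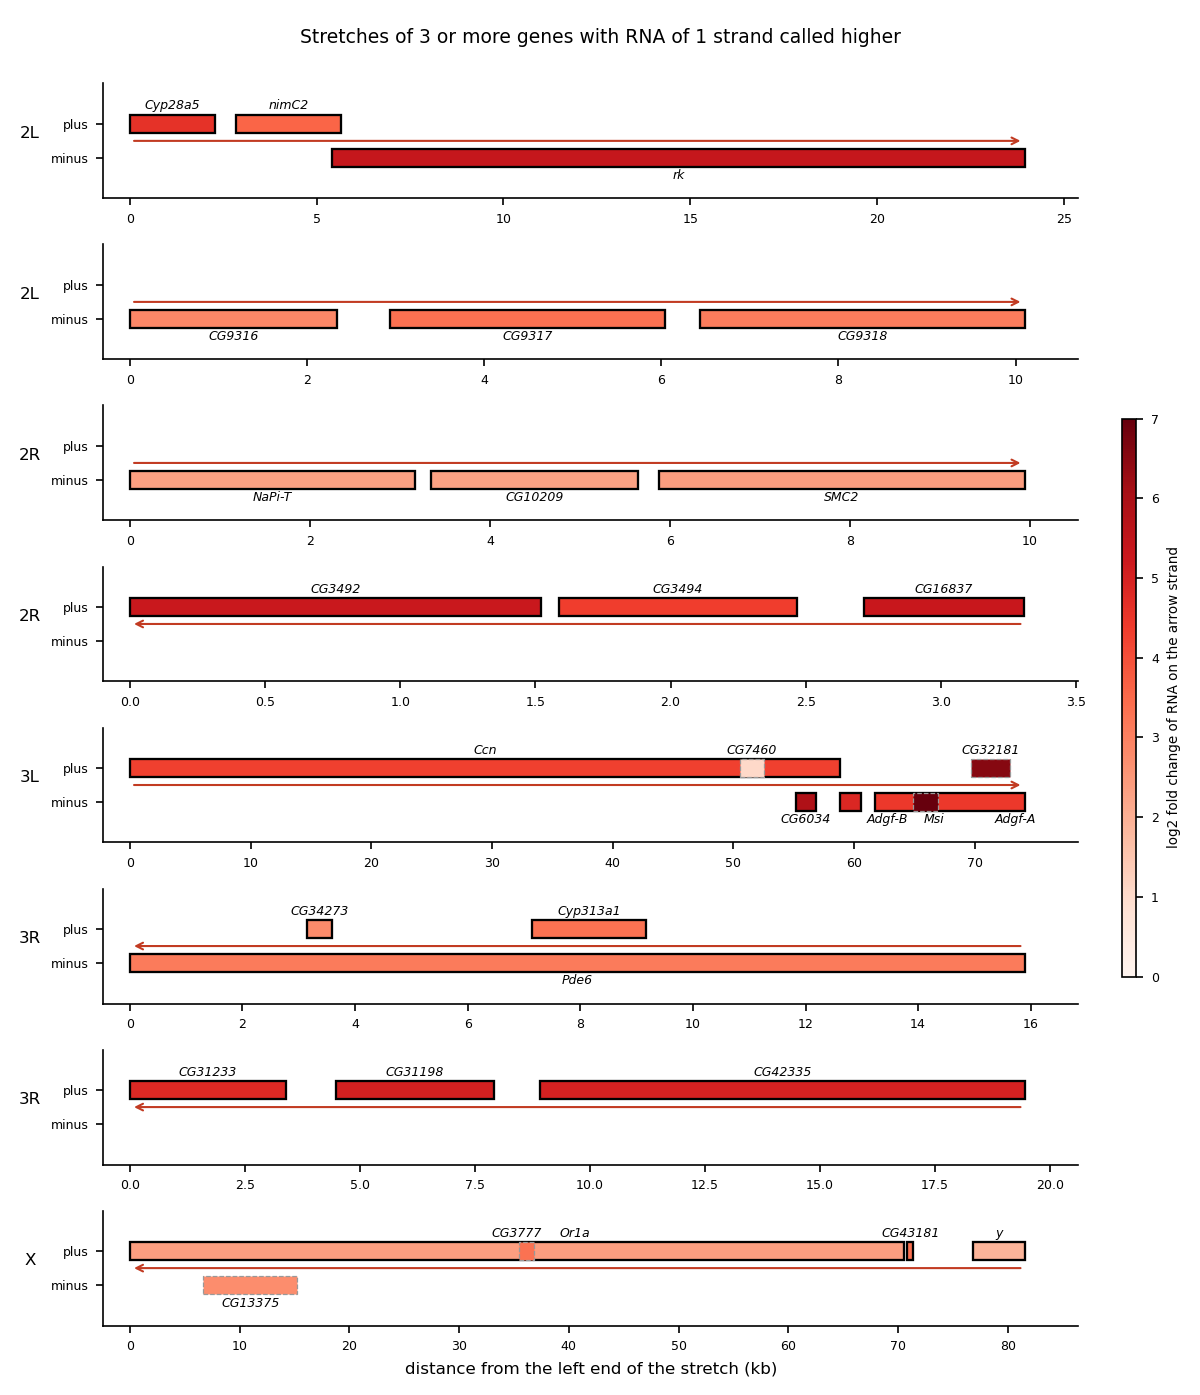
The 8 stretches with 3 or more called genes, drawn to scale by distance from their left end (kb, a separate axis each), with plus-strand genes above and minus-strand genes below the arrow that gives the strand of the RNA. Fill gives the log2 fold change of RNA on the arrow strand (for Ccn that of the rest of its locus), solid frames mark genes called and dashed frames tested genes without a call; genes not tested are not drawn. The 3 genes of the second 3R panel are filled alike, at 4.83, 5.04 and 5.01.

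By chromosome, 2R held 17 of the 47 opposite-strand calls, 2.39% of its 710 tested genes, and X 0.842% of 594. No difference between chromosomes was tested, and calls within a run are not independent. Of those on 2R, 3 lie close to its left end in the files, Stlk, p120ctn and CG17883 between bases 434181 and 561145, and in each the RNA ran on the minus strand. Opposite to Stlk, a kinase gene, the levels were 2.27 and 2.69 CPM against 14.4 and 13.3 CPM (2.45 ± 0.59, adjusted p = 0.0359). Distances between them exceed the joining distance.

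Most genes around the 10 coding calls had no coding call themselves, which does not show that they were level. Of 37 other genes within 10000 bases, 20 were tested in the coding sequence, 11 were positive and the median was 0.06, from -1.16 for rk to 7.64 for CG16741. CG4324, 1874 bases from Unc-89 on the same strand, stood at 3.36 (adjusted p = 0.54), and spin, 405 bases from CG30095 on the same strand, at 0.25. On the opposite strand 11 could be tested, with a median of -0.35 and 5 positive. Of these, 4 passed (1.39% of all genes did), namely rk, CG34273, Cyp313a1 and CG11192. CG34273 and Cyp313a1 lie inside Pde6 and rk overlaps nimC2, so they are not independent of the coding calls. CG11192 had 0 counts in both siGFP libraries. The 4 are therefore no further evidence beside the coding calls. Opposite-strand RNA of the coding calls themselves could be tested in 3 and ranged from -0.39 to 0.08.

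Gene lists that fit the cells and the knockdown held few calls. Of 176 distinct members tested, 5 were called, 2.84% against 0.121% of all genes, and these were dp, nimC2, Pde6, Unc-89 and gogo in the lists for matrix proteins, the Nimrod family, cyclic nucleotide enzymes, muscle and axon guidance. The lists were drawn up knowing that such genes had been called, so the share says nothing about the lists. In the muscle list 1 of 12 tested members passed, in the matrix list 1 of 18, in the axon guidance list 1 of 17 and in the Nimrod list 1 of 5. The 13 other lists held 0 coding calls.

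The lists of the pathway's machinery held 0 coding calls in the pellet, which does not show that their genes were level. In the list of nuclear silencing effectors, which act with Piwi on chromatin, 20 of 20 members were tested, 13 were positive and the median was 0.04. This list includes piwi itself, at -0.493 as given above, and the demethylase gene Su(var)3-3 stood at 0.29 ± 0.20 (adjusted p = 1.0). In the list of piRNA biogenesis in follicle cells 7 of 12 were positive (median 0.07), with fs(1)Yb, the core gene of the Yb body, at -0.33 ± 0.31. The genic piRNA sources tj and brat stood at 0.02 ± 0.31 and -0.01 ± 0.25. Germline piRNA genes had 8 of 10 positive (median 0.11), with rhi, the germline cluster factor rhino, at 15.9 and 18.2 CPM against 30.0 and 20.2 CPM (0.58 ± 0.29, adjusted p = 1.0). Follicle cell markers had 3 of 10 positive (median -0.09), with eya at 0.56 ± 0.28 and mirr at -0.59 ± 0.36.

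Markers of other cell types did not pass on their own strand outside the muscle list. Germline markers had 3 of 8 tested, with aub at 0.27 ± 0.47, and haemocyte markers 5 of 9, with Hml at 0.55 ± 0.31. He had 0 counts in all 4 libraries and was not tested. Neuron markers had 6 of 8 tested and 1 positive, para, a voltage-gated sodium channel gene, with a log2 fold change of 1.04 ± 0.27 (adjusted p = 0.623). In the stress and DNA damage list 12 of 15 were positive (median 0.16), with Hsp27 at 0.75 ± 0.36, and in the innate immune list 3 of 10 were (median -0.09), with Dif at -0.70 ± 0.26. The Paf1 complex and elongation list had 10 of 15 positive (median 0.08), with hyx at 0.24 ± 0.22, and the siRNA and miRNA list 6 of 10 (median 0.02), with loqs at -0.38 ± 0.43. Adjusted p was 1.0 for each tested gene named here other than para.

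Among genes that did not pass, the lowest and the highest values are given for those with a mean of at least 20 coding counts over the 4 libraries and groups that do not overlap. NnaD was at 70.3 and 65.0 CPM with siGFP and at 25.4 and 35.0 CPM with siPIWI (-1.18 ± 0.24, adjusted p = 0.264). CG1572 stood at -1.47 ± 0.72, CG9510 at -1.26 ± 0.63 and Tequila, a serine protease gene, at -1.14 ± 0.41, each with adjusted p = 1.0. The highest of this set were CG13325, at 0.453 and 1.35 CPM against 21.0 and 9.36 CPM (3.98 ± 0.76, adjusted p = 0.186), then CG16739, CG11426 at 3.67 ± 1.3, CG6052 at 3.06 ± 0.93 and CG8501 at 2.51 ± 0.53.

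The same RNAs had lower levels in the double knockdown, whose libraries were in the same fit and so helped to set the count filter and the spread by which these genes were called. For the 10 coding calls the mean of the double knockdown was 8.6% to 37.5% of the siPIWI mean (median 15.8%), and both of its libraries were below both siPIWI libraries in 10 of 10 and above both siGFP libraries in 9 of 10. For dp it was 117 CPM against 695 CPM with siPIWI and 45.7 CPM with siGFP. For the 47 opposite-strand calls it was 6.49% to 110% (median 21.7%), below both siPIWI libraries in 40 and above both siGFP libraries in 36. Since the genes were chosen for being high with siPIWI, a lower mean elsewhere is partly given by the choice. In 6 the double knockdown was above 75% of siPIWI, namely zormin, Fbp1, Sox21a, CG3777, CG43181 and y, which include all called genes of the runs at Fbp1 and at y. RNA opposite to y was at 99.4 and 83.6 CPM there, against 83.2 and 83.7 CPM with siPIWI. With siPAF1 alone 1 of the 10 and 8 of the 47 had both libraries above both siGFP libraries. How many of all tested genes had these patterns in the double knockdown or with siPAF1 was not counted. The counts of genes above or below are therefore given as values only.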

How the data were processed

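The authors deposited raw unique counts per transcript model (coding sequence, untranslated regions and locus, per strand) for each of 16 strand-specific libraries, per the file headers, with no normalization. The submitters' processing notes name Bowtie. The deposited RPM values, counts of all alignments scaled to the authors' own library totals, were not used as levels. Other deposited columns are coordinates and lengths. Here the longest coding model stood for each gene. Own-strand coding counts, locus minus coding counts and opposite-strand coding counts were tested in edgeR 4.0.16 (R 4.3.3) by the robust quasi-likelihood F test after filterByExpr and TMM, over 8 NUN libraries in 4 groups, with p-values adjusted by Benjamini-Hochberg over all genes and a threshold of 0.05. Opposite-strand counts took library sizes from coding counts. SE is the fold change over the root of F. Fits were tested on simulated data, with 100 changes of each size. Log2 changes of 1 were called in 19 (coding), 0 (rest of the locus) and 7 (opposite strand). Log2 changes of 2 were called in 92, 5 and 72, with 4, 2 and 2 false calls. Low counts of calls therefore do not show that changes near 1 were absent. No such values are given for the difference between regions, so its 0 calls do not show equal changes. With 2 against 2 libraries an exact permutation test cannot go below p = 0.333. Counting intervals and floors cover counting error only. Named genes were the siRNA targets, up to 20 calls per test, the 5 highest and 5 lowest without a call, neighbours within 10000 bases, and from each of 18 lists (217 of 217 names matched) its calls or the lowest p. Members and lists were chosen with earlier results of these data known.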

Additional observations from a re-analysis of the deposited data

Results flagged for a closer look

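The cytoplasm lysates of the same groups were not part of the comparisons above, and there 6 of the RNAs called in the pellet had more counts in each siPIWI library than in the siGFP libraries, with at least 10 counts over both siPIWI libraries. Pde6 had 118 own-strand coding counts with siPIWI (112 in library OSS_146 and 6 in OSS_147) against 1 and 2 with siGFP. Cyp28a5 had 30 (24 and 6) against 1 and 0, gogo 24 (22 and 2) against 1 and 0, and CG12691 11 (10 and 1) against 0 and 0. On the opposite strand CG42335 had 23 (19 and 4) against 0 and 0 and CG17883 had 21 (18 and 3) against 1 and 1. In each of the 6, library OSS_146 held most of the counts, and no test was run on these values. Of the 10 coding calls 5 reached 10 counts there and 4 had this pattern, and of the 47 opposite-strand calls 2 reached it and 2 had the pattern. Among all genes that reached 10 counts the pattern was found in 23.4% of 6351 on their own strand and in 15.8% of 177 on the opposite strand.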

How the results depend on the processing

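The counts that rose were 10 (coding), 2 (rest of the locus) and 47 (opposite strand), with 0 that fell in each. In the coding test DESeq2 called 19, both strands together 19, no count filter 36 with 2 that fell (CG1287 and NnaD), and the replicate block by library number 6 (nimC2, gogo, CG15572 and CG12691 lost, adjusted p = 0.0689 to 0.0788); the other planned settings gave 10 to 15. In the rest of the locus DESeq2 size factors gave 0, the DESeq2 test 34 with 4 that fell, no filter 14, introns alone 6, the replicate block 1 other gene (Ccn and Pde6 lost, adjusted p = 0.0631 each) and a fit of only the 2 groups 0. On the opposite strand the DESeq2 test gave 34, no filter 49 and the block 43. Leaving out a library gave 0 to 8 coding rises, 0 to 12 rises and 0 to 5 falls in the rest of the locus, 12 to 32 opposite-strand rises, and 0 to 3 falls in the test of the difference between regions. Numbers OSS_146 and OSS_147 pair nothing by the labels. Deviations of same-numbered siGFP and siPIWI libraries correlated at -0.40 over 5915 genes. Those of siGFP correlated at 0.24 with those of siPAF1 and at 0.77 with those of the double knockdown. Library number thus went with deviations shared between groups, with siPIWI in the other direction, and the main fits held no term for it. A crossed block, added after the data were seen, gave 18, 3 and 54 rises and 1 opposite-strand fall. Also added then, the opposite strand of the whole locus gave 0 calls, with 47 of 47 changes positive. Counted on both strands, rk turned from -1.17 to 1.04. The cause of these shifts was not tested. All main calls that could be refitted stayed positive in every setting. Each setting reused these libraries for genes chosen for rising in them. Such signs, those of the whole locus included, are therefore no further evidence.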
